A study of Mus musculus with 19 samples.

Results

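The nuclear-encoded subunit genes of the respiratory chain were followed in RNA from 2 cell populations sorted out of mouse pancreatic tumours. They were taken by symbol: every protein-coding gene of the Nduf (complex I), Sdh (complex II), Uqcr (complex III), Cox4 to Cox8 (complex IV) and Atp5 (ATP synthase, complex V) families. The rule found 85 gene identifiers with 84 distinct symbols among 51707 genes in the tables (Atp5o has a second, nearly empty identifier). By complex they number 35 for complex I, 4 for complex II, 8 for complex III, 20 for complex IV and 18 for complex V. Ndufa4 and Ndufa4l2 were counted with complex IV, of which NDUFA4 is now regarded as a subunit. Cyc1, Ndufab1, Usmg5 and Atpif1 also belong to this machinery, but their symbols fall outside the rule.

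The tumours arose from T-LOH KPC organoids (cultured pancreatic ductal adenocarcinoma cells) placed in the pancreas of C57BL/6J mice, which then received neratinib or vehicle for 2 weeks. Neratinib irreversibly inhibits receptor tyrosine kinases of the ERBB family. The groups were PDPN+ cells (cancer-associated fibroblasts, CAFs) from neratinib mice (4 libraries) and vehicle mice (4 libraries), and EpCAM+ epithelial cells from neratinib mice (5 libraries) and vehicle mice (6 libraries). All groups share the transplanted organoid and the host strain, so every comparison is within tumour-bearing mice. N or V before a 5-digit number below names the treatment and the mouse. That the number is the mouse is an inference from the labels. The p-values for neratinib within a population then describe the spread between mice. In the tests of population and interaction 8 mice gave both populations, and their libraries were taken as independent unless the mouse was a block. Those p-values describe the spread between libraries.

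The respiratory chain passes electrons from NADH through complex I, or from succinate through complex II, to ubiquinone, then through complex III and cytochrome c to complex IV, where oxygen is reduced. Complexes I, III and IV pump protons across the inner mitochondrial membrane, and ATP synthase uses the returning protons to make ATP. Most subunits are encoded in the nucleus and imported, while a small core of complexes I, III, IV and V is encoded by the mitochondrial genome. Complex II, encoded wholly in the nucleus, is also an enzyme of the tricarboxylic acid (TCA) cycle. In fibroblasts and in tumour epithelium the chain supplies ATP and regenerates the oxidised cofactors that biosynthesis needs.

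Gene-assigned reads per library numbered 30.3 to 48.1 M (1e6) for PDPN+ and 39.4 to 75.4 M for EpCAM+ cells. All 8 fibroblast markers were higher in PDPN+ cells and all 8 epithelial markers lower, although the summed epithelial level in PDPN+ libraries still reached 438 to 1810 CPM (counts per 1e6 reads, scaled between libraries), against 18199 to 27119 CPM in EpCAM+ libraries. The PDPN+ vehicle libraries V53175 and V53188 stood apart with the fewest genes at 10 or more reads (12057 and 11876, against 13642 to 18552 in the other PDPN+ libraries). The EpCAM+ libraries V53175, V53176 and N53178 also stood apart from the rest of their sort. In these bulk samples, fewer cells of a type and less RNA per cell cannot be told apart.

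Promoters of these genes are known for binding sites of NRF1, of ETS-family factors (NRF2, also called GABP) and of YY1, so their start regions were read first. RefSeq start windows of GRCm38.p6, 250 bases before to 50 after the start, were found for 68 of the 84 symbols. The full palindromic NRF1 motif, printed in capitals in the sequences shown next, stood in the windows of 5 of these 68 genes (7.35%), against 1.47% of all 17492 genes with a window. The ETS motif CCGGAAG stood on either strand in 16 of 68 (23.5%), against 12.9% of all. An extended YY1 motif stood in 4 of 68 (5.88%), against 1.06%. The ERR motif TCAAGGTCA stood in 2 of 68 (2.94%), against 0.377%. GGGCGG, letters bound by SP1, stood in 41.2% of these genes, against 49.2% of all. Both strands were searched, overlaps between motifs were allowed, and a match of letters is not a measured site.

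The windows of 4 of the 5 genes with the NRF1 motif are shown because Atp5k and Ndufa11 were higher in PDPN+ cells while Cox6a1 and Uqcrc1 were lower, as given below. Capitals mark the NRF1 motif and, where present, the ETS motif or its reverse complement; each is printed 5′ to 3′ on the gene's strand. Atp5k lies at chr5:108434350-108434649 (minus strand), Ndufa11 at chr17:56717512-56717811 (plus strand), Cox6a1 at chr5:115348909-115349208 (minus strand) and Uqcrc1 at chr9:108936398-108936697 (plus strand), all in GRCm38.p6 from RefSeq, another build than the one behind the read tables.
Atp5k: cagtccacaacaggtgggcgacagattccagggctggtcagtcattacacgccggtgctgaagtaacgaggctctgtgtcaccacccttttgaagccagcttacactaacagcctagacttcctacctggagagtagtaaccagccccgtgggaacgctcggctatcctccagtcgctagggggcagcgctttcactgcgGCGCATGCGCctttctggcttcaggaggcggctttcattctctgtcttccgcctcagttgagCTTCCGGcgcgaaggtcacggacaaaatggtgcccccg
Ndufa11: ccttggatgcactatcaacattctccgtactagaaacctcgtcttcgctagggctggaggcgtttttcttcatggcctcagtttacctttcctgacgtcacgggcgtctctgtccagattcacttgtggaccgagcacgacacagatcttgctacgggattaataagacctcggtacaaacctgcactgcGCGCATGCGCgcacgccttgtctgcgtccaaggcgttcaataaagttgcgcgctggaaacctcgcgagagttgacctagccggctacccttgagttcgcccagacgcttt
Cox6a1: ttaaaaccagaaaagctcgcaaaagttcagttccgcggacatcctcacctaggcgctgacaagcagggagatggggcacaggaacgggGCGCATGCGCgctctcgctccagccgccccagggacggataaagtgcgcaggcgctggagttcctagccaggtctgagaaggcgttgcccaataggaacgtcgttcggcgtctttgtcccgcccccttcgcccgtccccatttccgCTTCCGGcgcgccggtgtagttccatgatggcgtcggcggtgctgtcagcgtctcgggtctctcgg
Uqcrc1: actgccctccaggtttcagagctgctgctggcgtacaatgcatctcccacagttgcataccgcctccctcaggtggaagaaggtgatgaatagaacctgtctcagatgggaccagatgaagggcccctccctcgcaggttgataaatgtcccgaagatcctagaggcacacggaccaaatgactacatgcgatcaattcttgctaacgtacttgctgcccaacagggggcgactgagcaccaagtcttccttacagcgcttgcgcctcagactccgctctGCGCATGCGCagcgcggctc
The shared NRF1 letters thus stood in the start windows of genes that differed in opposite directions between the populations. In Uqcrc1 they lay after the start and in the other 3 before it. The same motif is present in the window of Atp5g2, whose level did not pass the test between the populations.

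As a whole the subunit genes took a smaller share of transcripts in PDPN+ cells than in EpCAM+ cells. Their summed level was 1.75 ± 0.28% of all TPM (transcripts per 1e6 transcripts, a level corrected for length) in PDPN+ neratinib libraries and 2.11 ± 0.24% in PDPN+ vehicle libraries (SD, n = 4 each). It was 2.72 ± 0.22% in EpCAM+ neratinib (n = 5) and 2.66 ± 0.21% in EpCAM+ vehicle libraries (n = 6). The highest PDPN+ library, V53185, had 2.46%, and the lowest EpCAM+ library had 2.40%, so the populations overlapped at this edge. The PDPN+ share was 0.719 of the EpCAM+ share and was lower within 7 of the 8 mice that gave both populations.

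The lower share was uneven among the complexes. Complex II was at 0.0428 ± 0.0090% in PDPN+ neratinib and 0.0503 ± 0.0037% in PDPN+ vehicle libraries, against 0.103 ± 0.0050% in EpCAM+ neratinib and 0.0961 ± 0.0079% in EpCAM+ vehicle libraries, a ratio of 0.468. Complex IV stood at a ratio of 0.586, complex V at 0.690, complex I at 0.804 and complex III at 0.916. In complexes II, IV and V the PDPN+ library was the lower of the pair in all 8 mice, in complex I in 7 and in complex III in 5. All 8 PDPN+ libraries lay below all 11 EpCAM+ libraries for complexes II, IV and V, and the ranges overlapped for complexes I and III.

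The 13 mitochondrially encoded mRNAs differed in the other direction and are part of the same total. They took 22.9 ± 2.6% of TPM in PDPN+ neratinib and 15.8 ± 6.1% in PDPN+ vehicle libraries, against 4.19 ± 0.28% and 4.14 ± 0.59% in EpCAM+ neratinib and vehicle libraries. All 13 were higher in PDPN+ cells (median log2 difference 3.05), among them mt-Nd1 (3.19, SE 0.21), which encodes a core subunit of complex I, and mt-Co1 (2.70, SE 0.21), the catalytic subunit of complex IV. With mitochondrially encoded genes taken out of the denominator, the subunit share was 2.43 ± 0.33% in PDPN+ neratinib and 2.62 ± 0.19% in PDPN+ vehicle libraries, against 2.88 ± 0.23% and 2.81 ± 0.23% in EpCAM+ neratinib and vehicle libraries. The ratio of the populations was then 0.889 for all members, 0.993 for complex I, 0.581 for complex II, 0.722 for complex IV and 0.855 for complex V. For complex III it was 1.13, so that the direction turned with the denominator. The ranges for complex V then overlapped, with PDPN+ libraries up to 0.704% and EpCAM+ libraries from 0.673%. For complex IV they nearly met, at 0.641% and 0.643%.

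**Figure D1:**
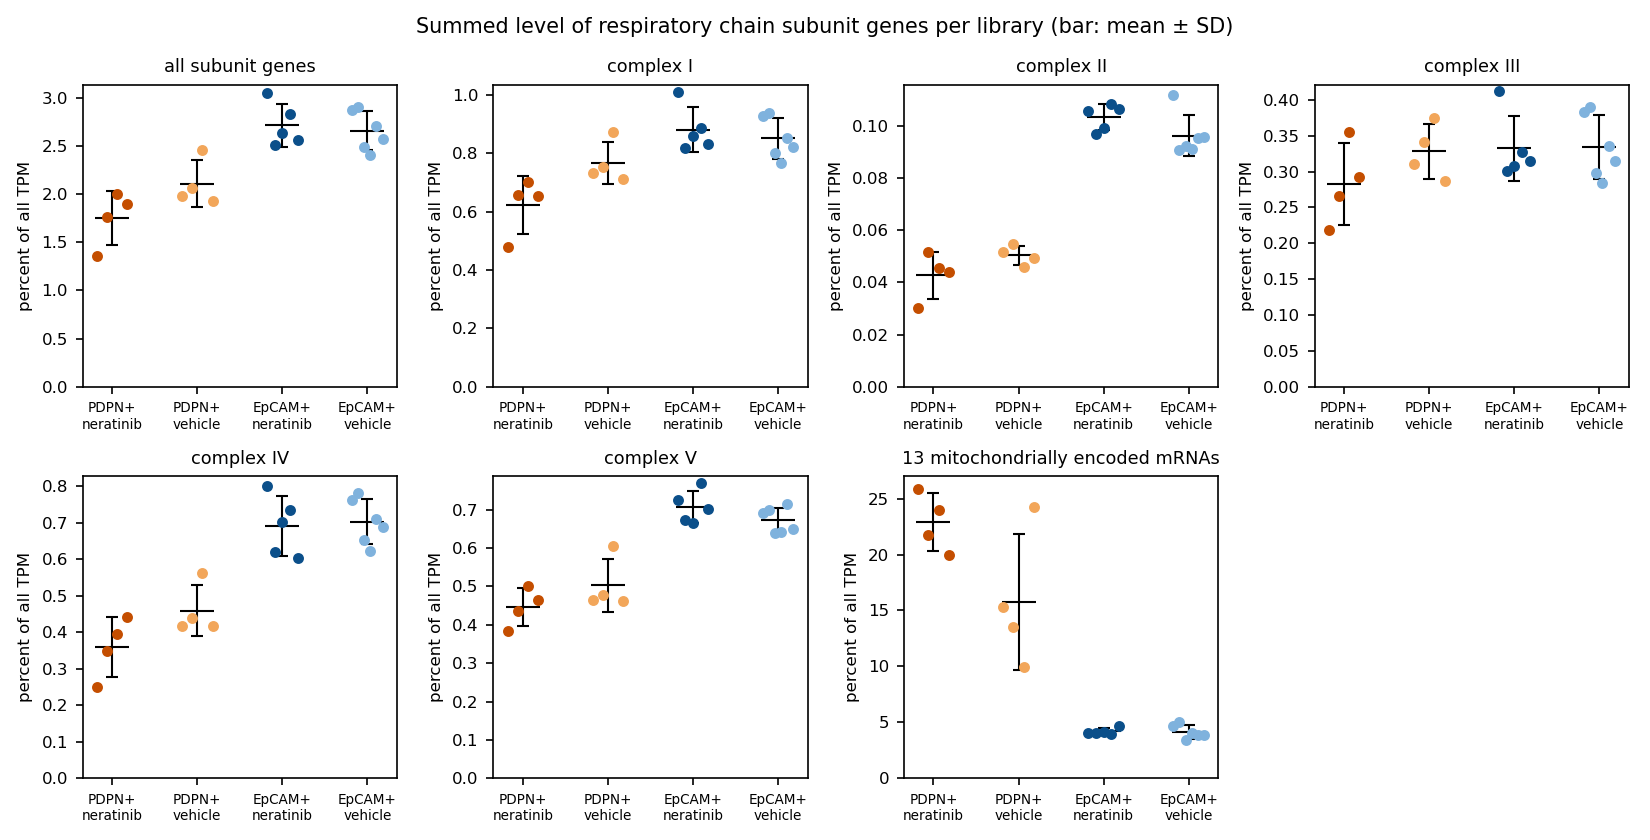
Summed level of the subunit genes and of the 13 mitochondrially encoded mRNAs as a percentage of all TPM; each point is a library, bars are mean ± SD, each panel has its own scale from 0, and the groups run from PDPN+ neratinib to EpCAM+ vehicle. Complex II is at 0.030 to 0.055% in PDPN+ and at 0.091 to 0.112% in EpCAM+ libraries, whereas the mitochondrially encoded share is higher in every PDPN+ library.

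Gene by gene, on CPM scaled between libraries, the subunits split in both directions. Of 80 members tested, 21 were higher and 20 lower in PDPN+ cells (edgeR quasi-likelihood test with Benjamini-Hochberg adjusted p under 0.05 over all genes), where 24.3% of all 19626 genes were higher and 25% lower. The shares of members, 26.2% and 25.0%, are close to that background. Their median log2 difference was -0.06, against -0.13 over all genes. On TPM, whose total includes the abundant mitochondrial transcripts, the split was 9 higher and 50 lower, where 2581 of 14565 genes were higher and 6947 lower. The median on log2(TPM + 1) was -0.55 for the members and -0.64 for all genes, and on log2(TPM + 0.1) it was -0.57 for the members and -0.91 for all genes. Voom with sample weights gave -0.03 for the members and -0.52 for all genes, so the place of the members relative to all genes depended on the scale. Without mouse N53178 the members' median on CPM was 0.0074. With the mouse as a block 13 members were higher and 19 lower, where 2595 of 19078 genes were higher and 4197 lower. Without the 5 libraries that stand apart 18 members were higher and 20 lower, where 4958 of 21279 genes were higher and 5102 lower. With the digit of the code in the library's file name as a factor, whose meaning the labels do not give, 5 were higher and 9 lower, where 2273 of 19626 genes were higher and 1933 lower. The calls lost in that fit included Ndufa2, Ndufs5, Ndufb9, Sdha, Uqcr10, Uqcrb, Uqcrc1, Uqcrc2, Cox4i1, Cox4i2, Cox6a1, Atp5g1, Atp5k and Atp5s, with adjusted p of 0.0525 (Ndufs5) to 0.872 (Uqcrb). The 5 members not tested for too few reads were Cox6a2, Cox7b2, Cox8b, Cox8c and the second Atp5o identifier. Cox6a2 and Cox8b are the muscle forms of their subunits, Cox7b2 and Cox8c testis-associated forms, and Cox7b2 and Cox8c had 0 reads in all 19 libraries.

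**Figure D2:**
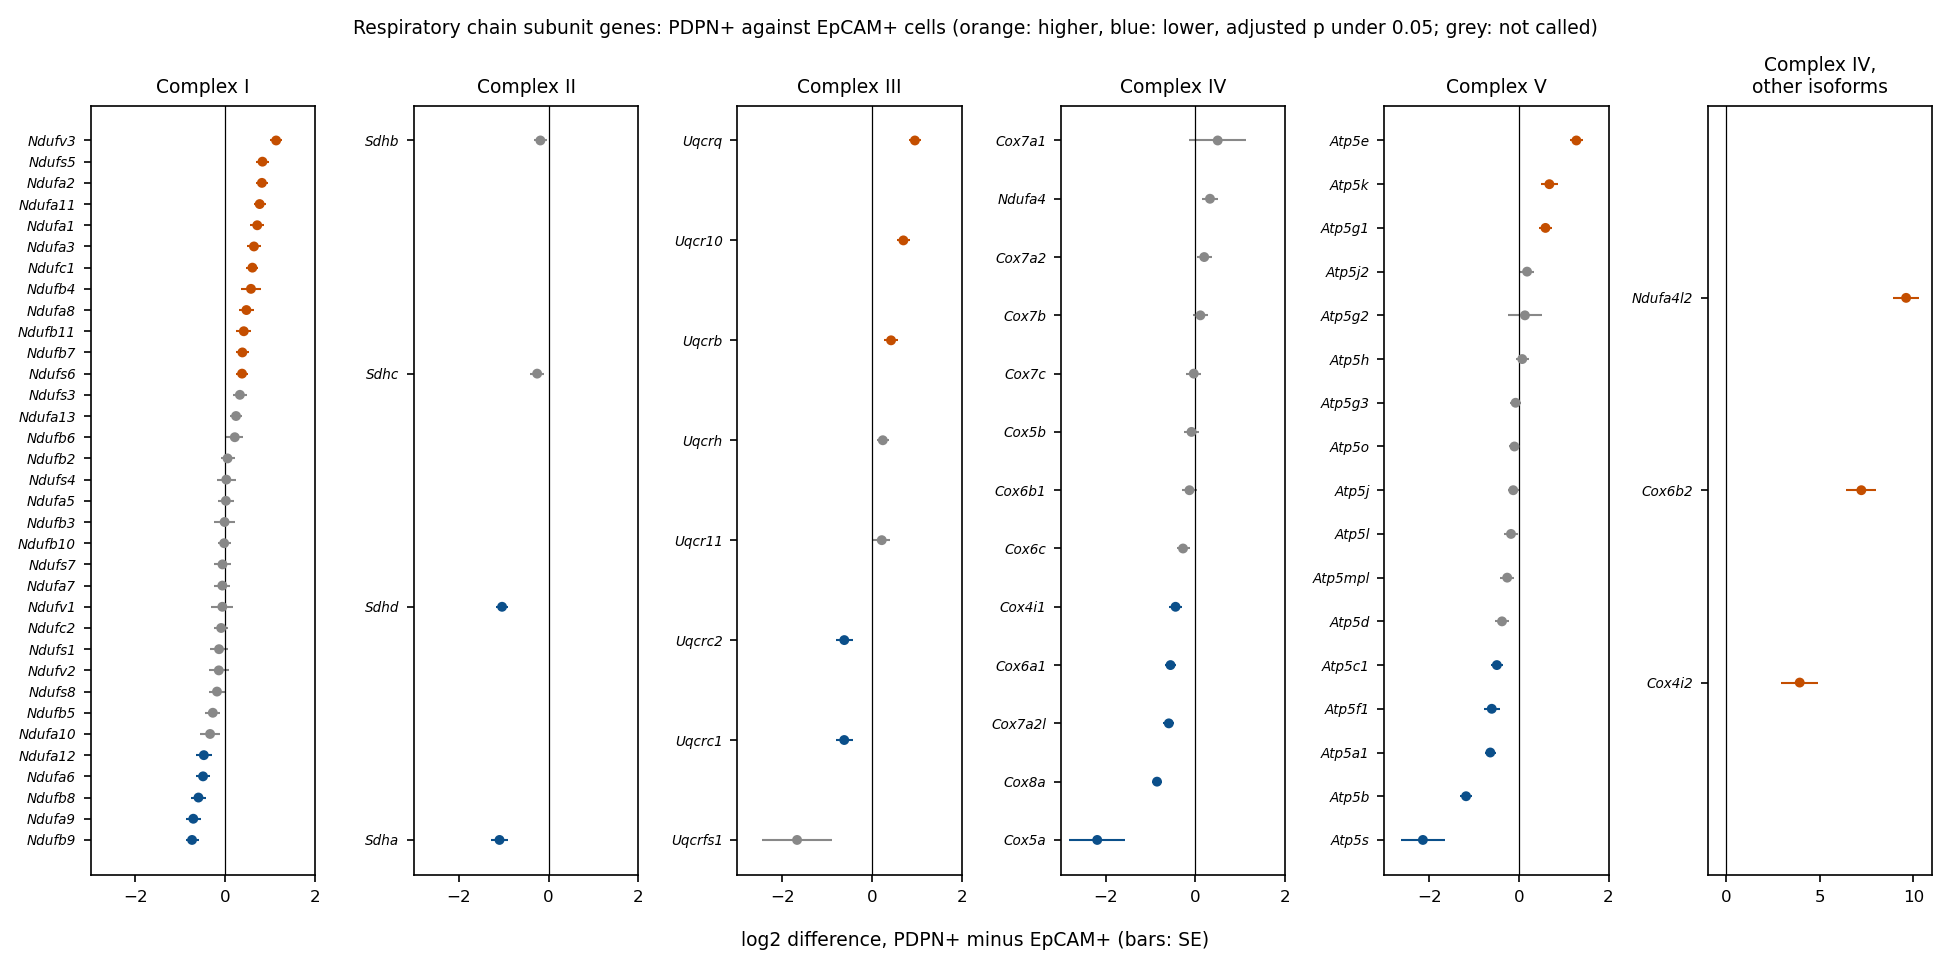
Log2 difference of subunit genes, PDPN+ minus EpCAM+, by complex; points are edgeR estimates over 8 PDPN+ and 11 EpCAM+ libraries, bars are SE, and the right panel has its own axis. Complex I reaches from Ndufb9 at -0.74 to Ndufv3 at 1.14, both differing members of complex II are lower, and Ndufa4l2 reaches 9.61.

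In complex I 12 of 28 accessory subunits were higher in PDPN+ cells and 5 lower, while 0 of 7 core subunits were higher. Over all genes 24.3% were higher and 25% lower. With 7 core subunits the counts cannot show a difference between core and accessory subunits. The core subunits carry the flavin, the iron-sulphur clusters and the quinone site. Among them Ndufs1, Ndufs3, Ndufs7, Ndufs8, Ndufv1 and Ndufv2 had log2 differences of -0.18 to 0.33 and did not pass. The remaining core subunit is not reported here. On log2(TPM + 1), where the median over all genes was -0.64, Ndufs1 (-0.76, adjusted p = 0.00674) and Ndufs7 (-0.56, adjusted p = 0.0103) passed as lower. So did Ndufs8 (-0.76, adjusted p = 8.5e-05) and Ndufv2 (-0.75, adjusted p = 0.00301), while Ndufs3 did not (-0.19, adjusted p = 0.130). Ndufs8 also passed with the file-name digit as a factor (-0.93, adjusted p = 0.0376).

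Among accessory subunits, Ndufv3, a small protein beside the NADH-binding flavoprotein, had 116, 153 and 229 CPM as lowest, median and highest value in PDPN+ libraries, against 65.2, 75.2 and 89.4 CPM in EpCAM+ libraries. Every PDPN+ library lay above every EpCAM+ library, with a log2 difference of 1.14 (SE 0.14, adjusted p = 1.6e-06). Ndufs5, a subunit on the intermembrane face, had 55.1, 66.1 and 88.8 CPM in PDPN+ libraries, against 29.9, 37.9 and 44.8 CPM in EpCAM+ libraries. It too did not overlap and differed by 0.83 (SE 0.14). Ndufa11, a membrane-arm subunit, differed by 0.77 (SE 0.14) and Ndufa1, a small X-linked subunit needed for assembly, by 0.72 (SE 0.15), both without overlap. Ndufa2, of the matrix arm, was higher by 0.82 (SE 0.13).

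The lower accessory subunits were Ndufb9 (-0.74, SE 0.14), Ndufa9 (-0.71, SE 0.17), Ndufb8 (-0.59, SE 0.16), Ndufa6 (-0.49, SE 0.15) and Ndufa12 (-0.47, SE 0.18). Ndufa9, which sits at the junction of the matrix and membrane arms, had 40.3, 71.7 and 122 CPM in PDPN+ libraries, against 101, 125 and 175 CPM in EpCAM+ libraries. The highest PDPN+ libraries were V53188, V53175 and V53179, and these overlapped the EpCAM+ range. With the mouse as a block the adjusted p of Ndufa12 was 0.0783, and those of 6 higher accessory subunits (Ndufa3, Ndufa8, Ndufb4, Ndufb7, Ndufb11 and Ndufs6) were between 0.0589 and 0.284. Ndufb4 shares near-identical sequence with a pseudogene in the tables, so the split of its reads is uncertain.

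All 4 genes of complex II had negative differences, and 2 of them passed, where 25% of all genes passed as lower. Sdha encodes the flavoprotein that oxidises succinate and had 66.4, 164 and 246 CPM in PDPN+ libraries, against 288, 326 and 429 CPM in EpCAM+ libraries. Sdhd encodes a membrane anchor of the complex and had 75.7, 105 and 166 CPM in PDPN+ libraries, against 184, 234 and 285 CPM in EpCAM+ libraries. Neither overlapped: the log2 differences were -1.09 (SE 0.19, adjusted p = 8.02e-05) and -1.04 (SE 0.14, adjusted p = 5.82e-06). The iron-sulphur subunit Sdhb (-0.18, SE 0.15) and the other anchor Sdhc (-0.25, SE 0.16) did not pass. On log2(TPM + 1), where the median over all genes was -0.64, both passed as lower. Sdhb stood there at -0.69 (adjusted p = 1.2e-05) and Sdhc at -0.94 (adjusted p = 0.000123). Sdhc also passed by voom (-0.42, adjusted p = 0.0365) and without mouse N53180 (-0.44, adjusted p = 0.0327).

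In complex III 3 of 8 members were higher and 2 lower, where 24.3% of all genes were higher and 25% lower. The core proteins Uqcrc1 (-0.62, SE 0.19) and Uqcrc2 (-0.62, SE 0.19), large subunits on the matrix side, were lower in PDPN+ cells, whereas the small subunits Uqcrq (0.96, SE 0.14), Uqcr10 (0.70, SE 0.14) and Uqcrb (0.43, SE 0.15) were higher. Uqcrq, which contacts cytochrome b, had 169.9, 197 and 352 CPM in PDPN+ libraries, against 96.1, 106 and 134 CPM in EpCAM+ libraries. The small subunits Uqcrh (0.24, SE 0.14) and Uqcr11 (0.22, SE 0.19) did not pass. Uqcr10 did not pass on log2(TPM + 1) (0.21, adjusted p = 0.0966). There was no overlap for Uqcrq, while for the other 4 called members the ranges met. The call on Uqcrb was the least firm: it was lost with the mouse as a block (adjusted p = 0.103) and without any of 8 mice in turn, with adjusted p between 0.0536 and 0.154 and log2 differences of 0.29 to 0.40.

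Uqcrfs1, the Rieske iron-sulphur protein that takes electrons from ubiquinol, did not pass (-1.67, SE 0.77, adjusted p = 0.0821). It had 0.509, 13.7 and 51.8 CPM in PDPN+ libraries, against 7.73, 31.0 and 158 CPM in EpCAM+ libraries. Its spread was the largest of all members in both populations, with a within-group SD of log2 CPM of 2.20 in PDPN+ and 1.54 in EpCAM+ cells. It passed without mouse V53185 (-2.21, adjusted p = 0.0413) and without mouse N53194 (-2.51, adjusted p = 0.0157). It also passed by DESeq2 (-1.73, adjusted p = 0.0293) and on log2(TPM + 1) (-2.24, adjusted p = 0.0111). Without the libraries that stand apart the difference was -0.55 (adjusted p = 0.584).

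Its variation was shared by Cox5a, a nuclear subunit of complex IV, and by Cyc1, the cytochrome c1 of complex III, a trio picked after its values were seen. Among EpCAM+ libraries, V53175, V53176, V53192, N53178 and N53184 had Uqcrfs1 at 56.0 to 158 CPM, against 7.73 to 31.0 CPM in the other 6. In the same 5 libraries Cox5a was at 167 CPM or more, against 42.2 to 101 CPM in the other 6. Cyc1 was at 115 to 162 CPM in those 5, against 28.5 to 82.8 CPM in the rest. Among PDPN+ libraries N53194 and V53185 were highest for all 3 genes, with Cox5a at 104 and 78.3 CPM and at most 25.6 CPM in the other 6. Of the 5 EpCAM+ libraries, V53175, V53176 and N53178 are those that stand apart. The sets cut across both treatments, and as the libraries were picked by these levels no test was made. Over the populations Cox5a was lower in PDPN+ cells by 2.19 on the log2 scale (SE 0.62, adjusted p = 0.00681).

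Complex IV held the largest differences, in the alternative isoforms of its subunits. Ndufa4l2, a relative of Ndufa4 known as a hypoxia-induced gene and as a pericyte marker, had 40.3, 74.0, 102 and 37.1 CPM in PDPN+ neratinib libraries N53178, N53180, N53184 and N53194. In PDPN+ vehicle libraries V53175, V53179, V53185 and V53188 it had 158, 95.6, 156 and 105 CPM. In the 11 EpCAM+ libraries it stood at 0 to 0.247 CPM, at most 14 reads. The populations were thus fully apart, with a log2 difference of 9.61 (SE 0.70, adjusted p = 2.91e-09). As 3 reads come to 0.0376 to 0.0703 CPM in EpCAM+ libraries, these levels are near the floor, and the size of the fold rests on few reads.

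Cox6b2, known in other tissues as the testis isoform of Cox6b1, had 2.30, 10.5 and 36.7 CPM in PDPN+ libraries, against 0, 0.0469 and 0.308 CPM in EpCAM+ libraries. It too was fully apart, with a log2 difference of 7.22 (SE 0.79, adjusted p = 5.69e-07), and V53188 was highest. Cox4i2, the isoform of Cox4i1 that in lung adapts the oxidase to low oxygen, had 0, 1.38, 5.10 and 0.0300 CPM in PDPN+ neratinib libraries N53178, N53180, N53184 and N53194. In vehicle libraries V53175, V53179, V53185 and V53188 it had 0, 2.68, 7.66 and 15.4 CPM, and EpCAM+ libraries held 0.111 to 0.318 CPM. In PDPN+ cells 5 libraries were above every EpCAM+ library and the other 3 below every one. The difference of 3.92 (SE 0.98, adjusted p = 0.00261) was 2.07 and not called with the mouse as a block (adjusted p = 0.438).

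**Figure D3:**
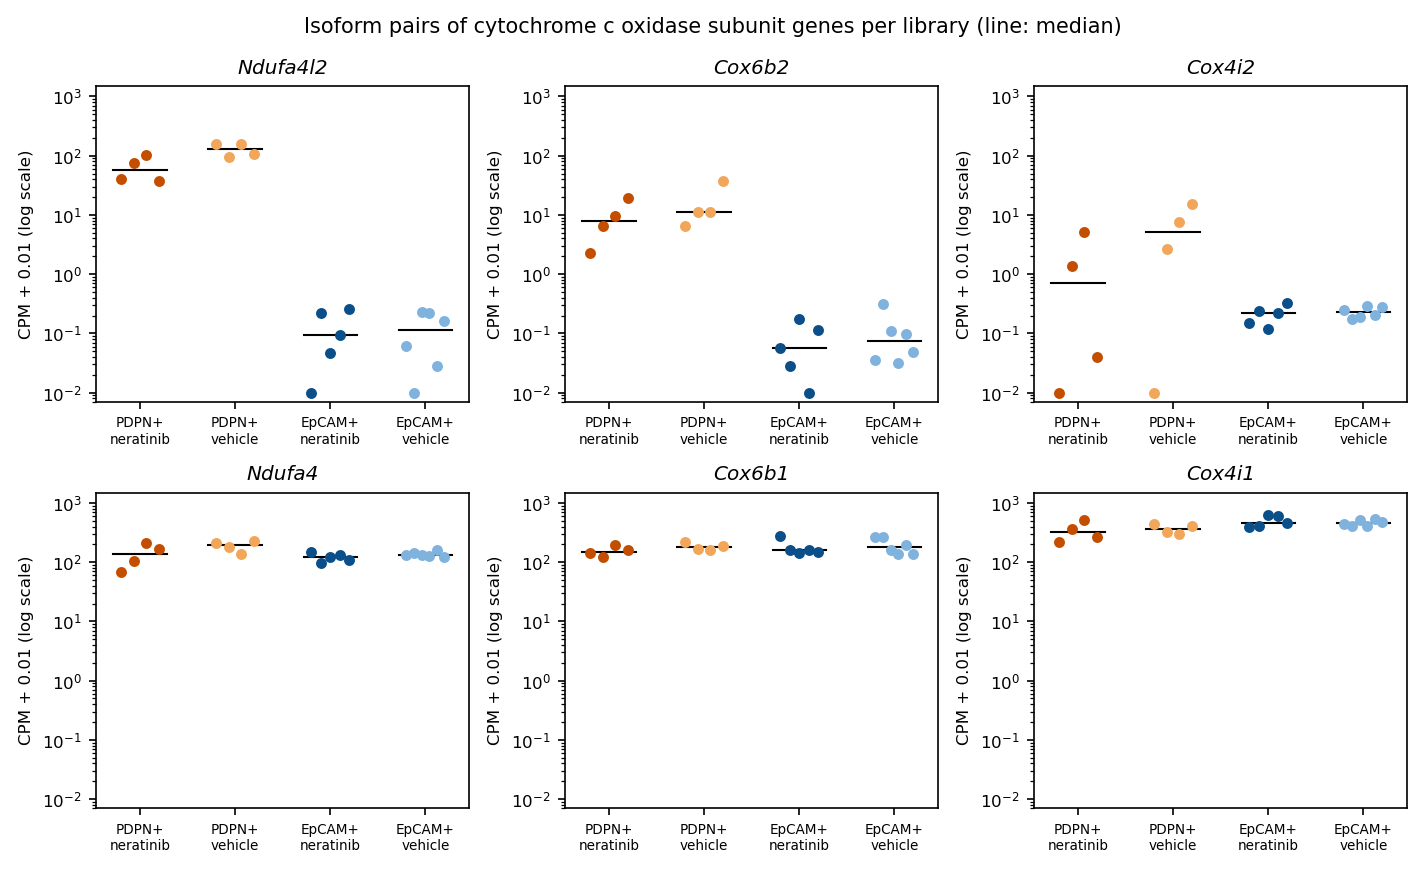
CPM per library (plus 0.01, log scale) of 3 complex IV isoforms in the upper row and their common partners below; each point is a library and the line is the group median. Ndufa4l2 and Cox6b2 lie above all EpCAM+ libraries in every PDPN+ library, Cox4i2 is at 0 in 2 of the 8 PDPN+ libraries, and the partners lie above 60 CPM in every library.

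The partners differed far less. Ndufa4 differed by 0.32 (SE 0.18) and Cox6b1 by -0.13 (SE 0.17), neither passing, and Cox4i1 was lower in PDPN+ cells (-0.44, SE 0.15, adjusted p = 0.0203). On log2(TPM + 1) Cox6b1 passed as lower (-0.61, adjusted p = 0.000685), and without mouse N53178 Ndufa4 passed as higher (0.41, adjusted p = 0.0295). As a share of the TPM of both genes of the pair, Ndufa4l2 made up 26.7 ± 8.8% in PDPN+ cells, against 0.0646 ± 0.0582% in EpCAM+ cells of the same 8 mice. Cox6b2 made up 8.45 ± 5.47% of its pair in PDPN+ cells, against 0.0610 ± 0.0530% in EpCAM+ cells. Each was higher in PDPN+ cells in 8 of 8 mice, with p = 0.0078 in an exact paired permutation test, the smallest that 8 pairs allow, and 0.082 after adjustment over 21 share tests. Cox4i2 made up 1.06 ± 1.38% and 0.0470 ± 0.0186% in PDPN+ and EpCAM+ cells and was higher in 5 of 8 mice (exact permutation p = 0.0625). Cox7a1, the heart and muscle form of Cox7a2, made up 8.54 ± 6.29% of the Cox7a family in PDPN+ and 7.09 ± 1.63% in EpCAM+ cells (exact permutation p = 0.555).

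Because Ndufa4l2 marks pericytes in other data, the pericyte list was read beside it. Of its 8 genes 7 were tested, all 7 had positive differences (median 4.03) and 4 were higher in PDPN+ cells. These included Kcnj8 (9.15, SE 0.99) and Pdgfrb (8.35, SE 0.99), both of which fibroblasts can also express. Cspg4 ran from 1.97 to 26.9 CPM in PDPN+ and from 0 to 1.94 CPM in EpCAM+ libraries. Abcc9 ran from 0.305 to 11.5 CPM and from 0 to 0.984 CPM. Rgs5 differed by 0.34 (SE 1.12), with 184 CPM in N53180 and at most 27.7 CPM in the other PDPN+ libraries. Higd1b had at most 0.240 CPM in PDPN+ libraries. The summed pericyte level ran from 79.0 to 440.3 CPM in PDPN+ neratinib and from 125 to 244 CPM in PDPN+ vehicle libraries, against 8.75 to 41.3 CPM and 12.5 to 34.8 CPM in EpCAM+ neratinib and vehicle libraries. The part of pericytes in the Ndufa4l2 level was not tested. Of 12 hypoxia targets 2 were higher in PDPN+ cells (P4ha1, a collagen prolyl hydroxylase, by 2.34, and Vegfa by 2.44) and 6 lower, including Car9 (-3.83), Slc2a1 (-1.28) and Pgk1 (-0.51). Over all genes 24.3% were higher and 25% lower.

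Over the 19 libraries, the genes outside the chain whose log2 CPM followed Ndufa4l2 most closely were Pdzrn3, Npl, Il6, Gdpd2 and Akap2, with Pearson r of 0.991 to 0.993. The 19 points share the population difference. The genes closest to Cox4i2 was Gm45292, Gm38032, Gm15787, Cyp26a1 and Hoxc5, with r of 0.900 to 0.936.

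The remaining differing members of complex IV were lower in PDPN+ cells. Cox8a, the common form of its small subunit, had 110.1, 149.6 and 182 CPM in PDPN+ libraries, against 217, 246 and 309 CPM in EpCAM+ libraries, a log2 difference of -0.86 (SE 0.12, adjusted p = 1.14e-05). Cox7a2l differed by -0.59 (SE 0.12). Neither overlapped between the populations. Cox6a1, the common form of the subunit whose muscle form is Cox6a2, differed by -0.56 (SE 0.12) with overlapping ranges.

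In ATP synthase the catalytic head was lower and its smallest part higher. Atp5b, the catalytic beta subunit and the most abundant member in EpCAM+ cells at 1252 ± 132 TPM, had 279, 437 and 587 CPM in PDPN+ libraries, against 811, 969 and 1187 CPM in EpCAM+ libraries. It did not overlap, and the log2 difference was -1.18 (SE 0.13, adjusted p = 4.36e-07). The alpha subunit Atp5a1 (-0.64, SE 0.12) and the gamma subunit Atp5c1 (-0.49, SE 0.14), the rotating shaft, were lower as well, and the delta subunit Atp5d (-0.38, SE 0.16) did not pass. Atp5e, the epsilon subunit of the same stalk, had 138, 181 and 322 CPM in PDPN+ libraries, against 67.5, 81.1 and 96.8 CPM in EpCAM+ libraries. It was higher in every PDPN+ library, by 1.28 (SE 0.15, adjusted p = 8.52e-07).

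In the membrane part, Atp5f1, a stator subunit, was lower (-0.60, SE 0.18). Atp5k, the small e subunit at dimer contacts, was higher (0.68, SE 0.19), and so was Atp5g1 (0.59, SE 0.14). On log2(TPM + 1) neither passed, Atp5k at 0.16 (adjusted p = 0.349) and Atp5g1 at 0.07 (adjusted p = 0.600), and with the file-name digit they were at 0.47 and 0.12. Atp5g1, Atp5g2 and Atp5g3 encode the same mature c subunit of the rotor ring. Atp5g1 made up 64.1 ± 8.0% of the TPM of the 3 genes in PDPN+ cells, against 54.7 ± 4.8% in EpCAM+ cells, and was higher in 7 of 8 mice (exact permutation p = 0.0391, adjusted 0.205). Atp5g3 made up 31.2 ± 6.4% in PDPN+ cells, against 39.7 ± 3.9% in EpCAM+ cells. Atp5s, also called factor B, was scarce and lower: 0.0731, 4.85 and 9.30 CPM in PDPN+ libraries, against 15.2, 21.4 and 24.9 CPM in EpCAM+ libraries (-2.14, SE 0.49, adjusted p = 0.00141).

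In all, 8 members had every PDPN+ library above every EpCAM+ library, and 7 had every one below, where 7.52% and 11.6% of all genes did so. The 8 were Ndufa1, Ndufa11, Ndufs5, Ndufv3, Uqcrq, Cox6b2, Ndufa4l2 and Atp5e. Those below included Sdha, Sdhd, Cox7a2l, Cox8a, Atp5b and Atp5s.

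The order of levels also differed. In PDPN+ cells the highest members on the TPM scale were Uqcrq (756 ± 222 TPM), Atp5e (727 ± 186 TPM) and Uqcr11 (633 ± 206 TPM), all small subunits. The SDs exceed the gaps between these 3. In EpCAM+ cells they were Atp5b (1252 ± 132 TPM), Cox4i1 (1182 ± 216 TPM) and Cox6a1 (1084 ± 141 TPM), whose SDs also exceed their gaps.

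The higher and the lower members differed in transcript length, which the symbol rule did not use. Of 30 tested members under 600 bases, 13 were higher and 4 lower in PDPN+ cells (43.3% and 13.3%), against 33.7% and 19.3% of other protein-coding genes of that length. Of 29 between 600 and 1000 bases, 8 were higher and 4 lower (27.6% and 13.8%), against 27.5% and 24.5% of the others. Of 21 at 1000 bases or more, 0 were higher and 12 lower (57.1%), against 24.1% and 25.1% of the others. Spearman's rho of the log2 difference with length over the 80 members was -0.56, a description over genes that share libraries. Over 14945 other protein-coding genes it was 0.00, and the medians of those genes in the same length classes were 0.24, -0.04 and -0.19, against 0.28, -0.01 and -0.60 for the members. With per-library effective lengths as offsets the counts were 20 higher and 20 lower. Many of the long members are catalytic or core subunits, so role and length cannot be told apart among the members.

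**Figure D4:**
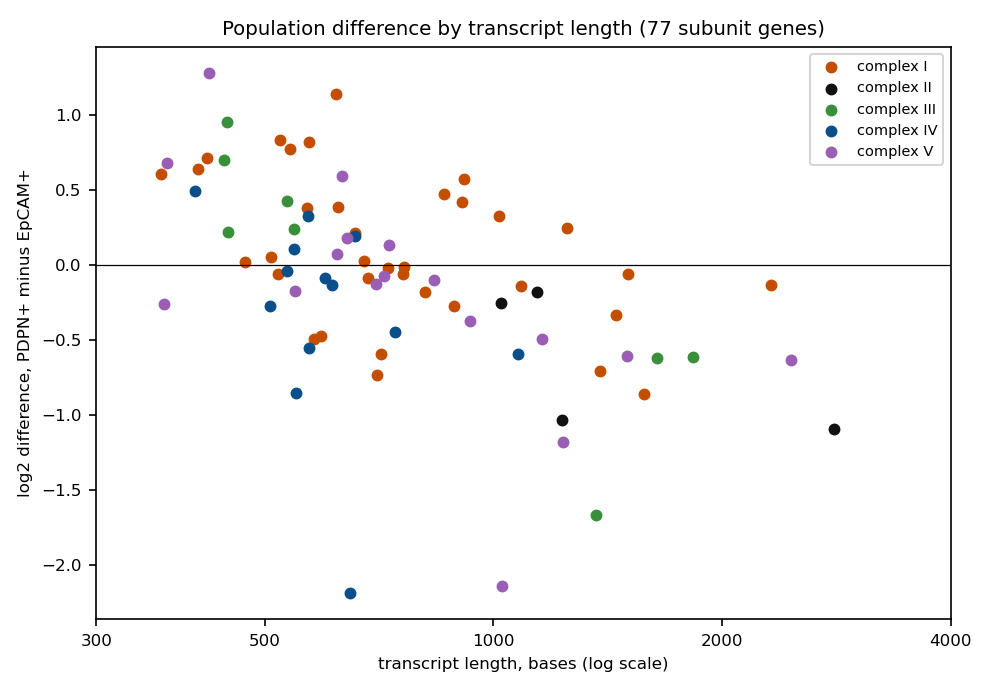
Log2 difference, PDPN+ minus EpCAM+, of 77 subunit genes against transcript length (log scale), coloured by complex; Ndufa4l2, Cox6b2 and Cox4i2 are left out. Of the 21 members of 1000 bases or more the highest is Ndufs3 at 0.33, and 12 were called lower.

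Neighbouring gene groups were read beside the subunits, where 24.3% of all genes tested were higher and 25% lower in PDPN+ cells. Of 20 TCA cycle genes tested, 0 were higher and 10 lower in PDPN+ cells, and all 20 had negative differences (median -0.59); they included Dlat, of the pyruvate dehydrogenase complex (-2.08, SE 0.26) and Pcx, pyruvate carboxylase (-3.60, SE 0.76). Of 46 assembly factors 3 were higher (Uqcc2 by 0.97) and 11 lower (Coa3 by -0.93, Acad9 by -1.37). Of 78 mitochondrial ribosomal proteins 14 were higher and 14 lower. Of 7 other dehydrogenases that feed ubiquinone, 1 was higher (Etfb, 0.98) and 3 lower (Gpd2, the mitochondrial glycerol phosphate dehydrogenase, by -2.21). Cyc1 was lower (-1.49, SE 0.50) and Cycs, cytochrome c itself, did not differ beyond its error (0.01, SE 0.20). Of 18 regulators of mitochondrial genes tested, 1 was higher and 7 lower, and Ppargc1b, a coactivator of these genes, stood at -2.62 (SE 0.87, adjusted p = 0.0176).

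The series also asked what neratinib changed in each population. In PDPN+ cells 0 of 80 members passed, as did 0 of 14437 genes (0%). At an unadjusted p under 0.05 there were 3 members, all lower (1.36% of all genes were lower by that rule), and 331 genes (2.29%) in either direction; DESeq2 called 0 members and 13 genes. The 3 members were Ndufa4l2 (-1.03, SE 0.41, unadjusted p = 0.0298), Ndufb6, an accessory subunit of complex I (-1.07, SE 0.43, unadjusted p = 0.0306), and Uqcrc1 (-0.93, SE 0.37, unadjusted p = 0.0318), each with an adjusted p of 1.00 in the edgeR test.

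Ndufb6 had 38.1, 47.7, 65.6 and 52.7 CPM in neratinib libraries N53178, N53180, N53184 and N53194, against 162, 70.5, 55.7 and 136 CPM in vehicle libraries V53175, V53179, V53185 and V53188. The highest values were those of V53175 and V53188, the libraries that stand apart, and the groups overlapped. Uqcrc1 had 87.5, 244, 168 and 284 CPM in the neratinib libraries, against 445, 338, 252 and 439 CPM in the vehicle libraries. Again V53175 and V53188 were highest, N53178 was lowest, and N53194 lay above V53185. Without the libraries that stand apart, 0 members had an unadjusted p under 0.05.

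The members leaned to negative differences together. Of 80, 64 were negative (80%), against 47.2% of all genes, and their median was -0.26, against 0.06 over all genes. By complex the medians were -0.27 (I), -0.28 (II), -0.26 (III), -0.35 (IV) and -0.14 (V). The genes share 8 libraries, so this is a description of those libraries: without N53178, the neratinib library with the lowest summed share (1.36% of TPM), 56 of 80 were negative with a median of -0.16. Without V53175 and V53188 the count was 56 of 80 and the median -0.10. Voom with sample weights, which gives variable libraries less weight, gave a median of -0.11 for the members and -0.10 for all genes. Only Ndufs5 and Cox7c had all neratinib libraries below all vehicle libraries, 2.5% of members, where 1.1% of all genes did.

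The mitochondrially encoded mRNAs leaned the opposite way in PDPN+ cells: all 13 had positive differences (median 0.48) and 0 passed. Mitochondrial genes took 12.4 to 19.4% of reads in PDPN+ neratinib libraries and 6.14 to 17.3% in PDPN+ vehicle libraries, V53188 being the vehicle library at 17.3%. Their part in the lower subunit levels was not tested. With these genes left out of the libraries 65 of 80 members were negative with a median of -0.26. That fit cannot decide it, because TMM scaling trims extreme genes and so moves little when they are removed. The summed subunit share was 1.75% in PDPN+ neratinib and 2.11% in PDPN+ vehicle libraries with these genes in the denominator. Without them it was 2.43 ± 0.33% and 2.62 ± 0.19%.

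**Figure D5:**
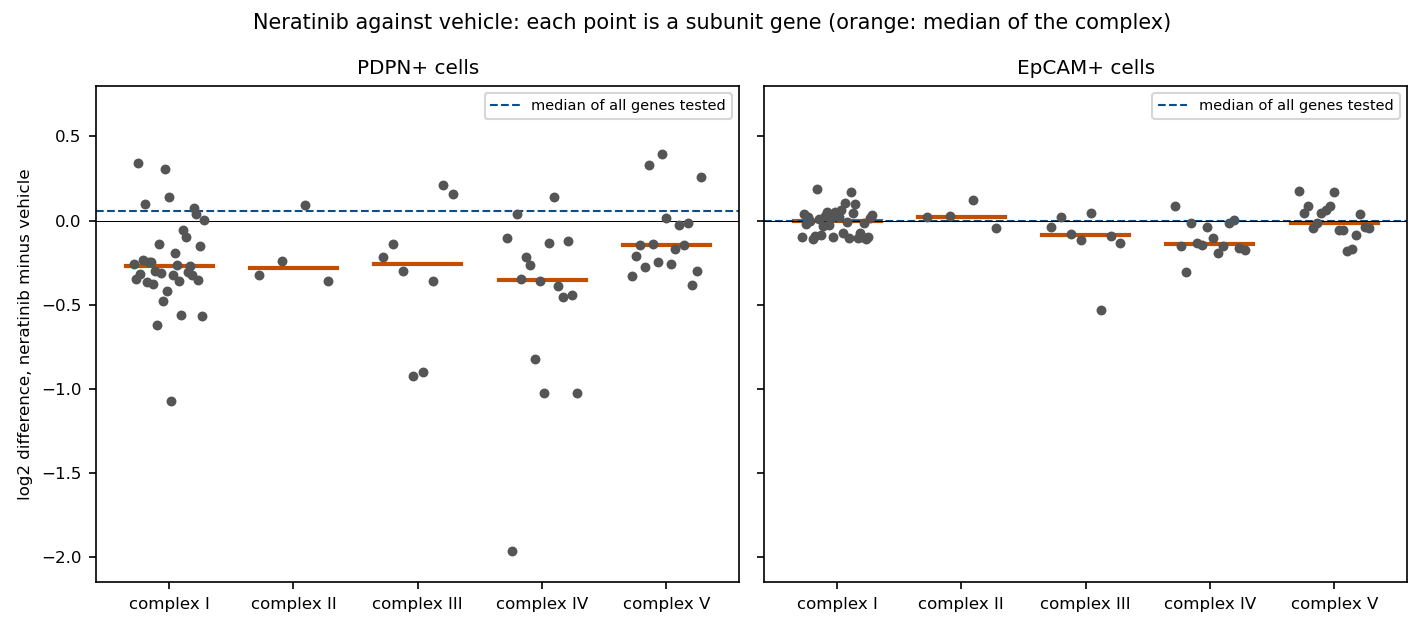
Log2 difference of each subunit gene, neratinib minus vehicle, by complex, in PDPN+ cells (left, 80 genes) and EpCAM+ cells (right, 78 genes); each point is a gene, orange lines are medians and the dashed line is the median of all genes tested. PDPN+ medians lie between -0.35 and -0.14, and EpCAM+ medians between -0.14 and 0.02.

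In EpCAM+ cells 0 of 78 tested members passed, as did 0 of 17200 genes (0%). There were 524 genes (3.05%) and 0 members at an unadjusted p under 0.05, and DESeq2 called 0 members and 8 genes. Differences ran from -0.53 (Uqcrfs1, SE 0.82) to 0.19 (Ndufa5, SE 0.10), with a median of -0.02, against -0.00 over all genes. Negative were 45 of 78, against 50.2% of all genes. Without mouse N53178 the median was -0.10, with 61 of 79 negative. It was above 0 without mouse V53175 (0.024, 32 of 78 negative), V53176 (0.022, 34 of 78) or N53180 (0.0064, 37 of 78), and on log2(TPM + 1) (0.034, 28 of 77). Atp5a1 had the smallest unadjusted value (0.17, SE 0.08, edgeR unadjusted p = 0.0624). Cox6b2 and Ndufa4l2 had too few reads to be tested in this population.

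The neratinib effects were not shown to differ between the populations. In the interaction test 0 of 80 members passed, where 13 of 19626 genes (0.0662%) did. At an unadjusted p under 0.05 were 11.2% of genes. The smallest adjusted p among the members was that of Ndufb6 (-1.10, SE 0.38, adjusted p = 0.228), followed by Uqcrc2 (-0.95, SE 0.37, adjusted p = 0.294). DESeq2 called 0 members and 633 genes. In simulated data 200 changed genes were drawn at random from all genes tested. A log2 change of 2 was recovered for 2.2% of changed genes among 14437 in the PDPN+ comparison and for 76.6% among 17200 in the EpCAM+ comparison. For genes drawn in this way, a change of that size would mostly not have been detectable in PDPN+ cells. The members were not simulated as a set, so their own rate is not known. The within-group SD of log2 CPM had a median of 0.40 over the members in PDPN+ cells and 0.21 in EpCAM+ cells, and was larger in PDPN+ cells for 71 of 80.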

How the data were processed

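RNA-seq libraries were made from 8 PDPN+ and 11 EpCAM+ sorts of 11 mice, with a low-input kit whose PCR cycles were set by the RNA amount, per the labels' protocols. Per the submitters' processing notes, Salmon 1.9.0 quantified the reads against GRCm39 (mm39); no transcript release or option is stated in the sources at hand. The deposited files hold estimated counts, TPM and effective lengths per transcript, per the file headers. These were summed to genes with names from GENCODE M21, which left 10765 of 147828 transcripts unmatched and out of all tests, and the estimated counts as deposited were rounded to whole numbers. The unmatched transcripts held 4.07 to 8.96% of reads in PDPN+ libraries, N53178 being highest, and 1.77 to 2.26% in EpCAM+ libraries. Ambiguous reads had been shared among similar transcripts by Salmon, so near-identical copies remain uncertain.

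Tests used the quasi-likelihood test of edgeR 4.0.16 in R 4.3.3 (TMM, filterByExpr for low counts, robust fit, Benjamini-Hochberg adjustment), within each population for neratinib and over all 19 libraries for population and interaction. Alternatives used DESeq2 1.42.0, limma 3.58.1, other filters, scalings and length offsets, a block for mouse, and fits without each mouse in turn. Scripts were tested on simulated data. The 5-digit number was read as the mouse, and 8 mice gave both populations; same-mouse libraries deviated with correlations of -0.107 to 0.0307. Isoform shares were compared with exact permutation tests, two-sided. The members and lists were chosen with earlier results of these data known. Genes named are the called members with the smallest p per complex and direction, the core subunits, the isoform families, the most and least abundant member of each complex and 2 genes per direction of each list; not every such gene is printed, some genes are not reported here, and others named were chosen after their values were seen. Counting intervals and floors of 3 reads cover counting error only.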

Additional observations from a re-analysis of the deposited data

Results flagged for a closer look

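Of 200 sets of 4 to 6 libraries examined, 16 held a library far from the rest, where chance gives about 1 in 20 sets, or 10.0. The EpCAM+ neratinib library N53178, which stands apart as a whole, was the high one for Atp5g1 (200.4 CPM, others at most 158), Cox6b1 (271.7 CPM, others at most 161), Cox7a2l (243.8 CPM), Cox7b (116.9 CPM), Ndufa9 (147.3 CPM) and Ndufv2 (135.6 CPM), and for the summed share of complex III (0.4116% of TPM). In the same group N53193 was high for Atp5g3 (193.3 CPM) and N53194 low for Ndufv1 (87.65 CPM). Among EpCAM+ vehicle libraries V53176 was high for Cox6b2 (0.3076 CPM) and V53175 for the summed share of complex II (0.1117% of TPM).

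Among PDPN+ neratinib libraries N53180 was high for Atp5g2 (37.32 CPM, others 16.4 to 19.5). Among PDPN+ vehicle libraries V53188 was high for Atp5g1 (332.3 CPM, others 233 to 235) and for Cox6b2 (36.68 CPM, others 6.54 to 11.4). V53185 was high for the summed shares of complex IV (0.5621% of TPM) and complex V (0.6063% of TPM).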

How the results depend on the processing

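The member counts in both neratinib comparisons and in the interaction were 0 under every alternative run. The numbers in the labels were taken to pair the libraries by mouse; with that block 32 members were called between the populations (41 without it), and 9 calls were lost, those on Cox4i2, Ndufa12, Ndufa3, Ndufa8, Ndufb11, Ndufb4, Ndufb7, Ndufs6 and Uqcrb. With the digit in the file names as a factor 14 were called, and 5 higher and 8 lower calls were shared with the main fit. Only part of the lost calls is named above, and the cause was not tested. Leaving out each mouse gave 35 to 40 calls and summed-share ratios of 0.684 to 0.760 for all members, 0.766 to 0.854 for complex I, 0.454 to 0.495 for II, 0.874 to 0.976 for III, 0.549 to 0.628 for IV and 0.658 to 0.712 for V. With mitochondrially encoded genes out of the denominator the ratio was 0.889 for all members, 0.993 for complex I, 0.581 for II, 1.13 for III, 0.722 for IV and 0.855 for V. No member called higher was called lower under any alternative, or the reverse. Turns of sign are given only for the called members with the smallest p per complex and direction, the core subunits and the isoform families. On log2(TPM + 1) and log2(TPM + 0.1), which carry a shift of all genes, the signs turned for Uqcrb (-0.10 and -0.10), Ndufs3 (-0.19 and -0.19), Cox7a1 (-0.50 and -0.92), Cox7a2 (-0.34 and -0.34), Cox7b (-0.44 and -0.45), Ndufa4 (-0.24 and -0.24) and Atp5g2 (-0.64 and -0.70). The file-name digit turned Uqcrb (-0.083), Ndufs3 (-0.15) and Cox7b (-0.19). Voom turned Ndufs1 (0.010) and Cox7a1 (-0.91), length offsets turned Ndufv1 (0.23), and the block turned Cox7a1 (-0.17) and Atp5g2 (-0.16). Leaving out each mouse gave -0.22 to 0.020 for Ndufs7 and -0.33 to 0.029 for Ndufv1, both turned without N53178. It gave -0.096 to 0.18 for Cox7b, turned without N53184, and -0.099 to 0.30 for Atp5g2, turned without V53179 and without N53180 (-0.069). Without the libraries that stand apart, an alternative chosen after seeing the data, Ndufs1 (0.036) and Cox7a1 (-0.26) turned. Of these genes only Uqcrb had been called. Over all 80 members tested, 44 were negative in the main fit, where 21 were called higher, and 64 were negative on both TPM scales. Signs therefore also turned on those scales for members not listed, called ones among them. Levels under the floor of 3 reads, as for Ndufa4l2 and Cox6b2 in part of the EpCAM+ libraries, limit how exactly a fold can be stated.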
